A study of Mus musculus with 10 samples.

Results

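The genes of the hypoxia-inducible factor (HIF) system were followed after acute loss of the mitochondrial pyruvate carrier subunit MPC2 in granulocyte-macrophage progenitors (GMPs). They were 10 genes of the 51717 to which transcripts were summed, chosen by name with earlier results of these data known. Hif1a and Epas1 encode the oxygen-labile alpha subunits, and Arnt encodes the constitutive beta subunit. Egln1, Egln2, and Egln3 encode the prolyl hydroxylases, Vhl the recognition subunit of the ubiquitin ligase, and Hif1an the asparaginyl hydroxylase. Bnip3 and Vegfa are targets of the factors. Reads of 9 of the 10 genes were high enough for a test, and Epas1 was not tested.

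The data were RNA-seq profiles of CD45.2+ GMPs, the bone marrow precursors of neutrophils and monocytes, sorted from chimeras in which the CD45.2+ donor marrow had grown beside WT CD45.1+ marrow in irradiated recipients. The 5 WT samples had the genotype ROSA26 CreER+/-, and the 5 recent Mpc2 KO samples had the genotype Mpc2fl/fl; ROSA26 CreER+/-, in which exon 3 of Mpc2 was floxed. All animals were male C57Bl6/N mice, and both groups received tamoxifen chow for 2 wk before they were taken, so the WT cells also carried CreER and had met the drug. CreER sits in a locus that is active in most tissues, and ages are not in the labels. Each WT sample was 1 mouse and each recent KO sample a pool of 2 mice, 10 mice in all, so a KO sample was already an average.

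HIF alpha subunits are made and destroyed without pause in oxygenated cells. The EGLN enzymes hydroxylate them with oxygen and 2-oxoglutarate, VHL then marks them for the proteasome, and the HIF1AN enzyme (also called FIH) blocks the recruitment of coactivators by those that escape. Where oxygen is low the alpha subunits survive, pair with ARNT, bind the letters ACGTG or GCGTG, and switch on genes for glycolysis, pyruvate diversion from mitochondria, mitophagy, and vessel growth. This control acts mainly on protein, which was not measured here, and the marrow is a poorly oxygenated tissue in which progenitors use the pathway.

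The core letters ACGTG and GCGTG were looked up on both strands of RefSeq promoters (GRCm38, 250 bases before to 50 bases after each start). They occurred in 43.8% of all 32851 promoters and in 8 of the 11 promoters listed for the 9 matched members. Bnip3 and the upstream promoter of Egln2 were dense in them. Bnip3 held 5 cores, a number reached by 1.66% of promoters, and Egln2 held 6, a number reached by 0.694%. The GC content of these promoters was 71.7% and 64.3%, against a median of 52.7% over all promoters. Its part in the counts of cores was not tested. Hif1a held 3, Egln1 2, and Egln3, Arnt, and the second Egln2 promoter 1 each. The internal promoter of Vegfa held 2, and its upstream promoter, Vhl, and Hif1an held none in this window. The stretches that follow show where the cores sit in 2 classical targets that also belong to the feedback loop (Egln1, Egln3), in the mitophagy target Bnip3, and in the gene of the alpha subunit itself. Capitals mark the cores on either strand, and CACGTG holds 1 core on each strand, which were counted separately.
Bnip3, chr7:138909527-138909636, minus strand, positions -130 to -21: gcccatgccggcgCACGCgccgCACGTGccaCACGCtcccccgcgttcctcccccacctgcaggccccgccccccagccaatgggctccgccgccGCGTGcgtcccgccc
Egln3, chr12:54204074-54204124, minus strand, positions -250 to -200: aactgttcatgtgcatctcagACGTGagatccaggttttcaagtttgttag
Egln1, chr8:124949315-124949394, minus strand, positions -140 to -61: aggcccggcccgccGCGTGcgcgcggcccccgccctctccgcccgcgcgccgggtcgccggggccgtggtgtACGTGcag
Hif1a, chr12:73907717-73907816, plus strand, positions -150 to -51: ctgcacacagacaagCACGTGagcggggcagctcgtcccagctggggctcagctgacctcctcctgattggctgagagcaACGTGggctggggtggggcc
No binding was measured here, so a match to these letters is a description of the sequence.

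Samples held 14033776 to 19745405 estimated reads. Mpc2, the targeted gene, stood between 60.9 and 117 CPM (estimated reads as a share of the TMM-scaled library) in WT and between 17.1 and 43.9 CPM in recent KO samples, without overlap (log2 fold change -1.46 ± 0.24 SE, edgeR quasi-likelihood test with Benjamini-Hochberg adjustment, adjusted p = 0.0156). Across all genes, 15 rose and 26 fell of 12381 tested (26 and 20 after scaling to library size alone). GMP markers were abundant in every sample, with Mpo at 61005 ± 7466 CPM in WT against 42407 ± 7537 CPM in recent KO samples (SD, n = 5 each). None of the 14 GMP markers passed the adjusted threshold in edgeR (DESeq2 called Mpo and Fcgr3, edgeR without a filter on low counts 5 markers, and edgeR without recent KO 3 Fcgr3, all lower), 10 had an unadjusted p under 0.05, all 10 of them lower, and their summed level was 88384 to 124310 CPM in WT against 52310 to 90444 CPM in recent KO samples.

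The RNA of the HIF system did not move past the threshold 2 wk after the start of Mpc2 deletion. None of the 9 tested members passed the adjusted threshold in edgeR, against 0.331% of all tested genes. At an unadjusted p under 0.05, 1 member (Vegfa) passed, against 10.2% of all tested genes, DESeq2 called 0 (also 1 at an unadjusted p under 0.05), and limma called 0 (0 at an unadjusted p under 0.05). The members split into 4 higher and 5 lower, where 49.6% of tested genes were higher, with a median log2 fold change of -0.022, beside -0.0018 over all tested genes. In no member did the CPM of the 2 groups separate, which happened in 2.43% of tested genes. For 8 of the 9, the 95% confidence interval stayed within 1.5-fold in either direction, and Vegfa was the exception. In bulk RNA, fewer cells that express a gene and less of its RNA per cell cannot be told apart.

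**Figure D1:**
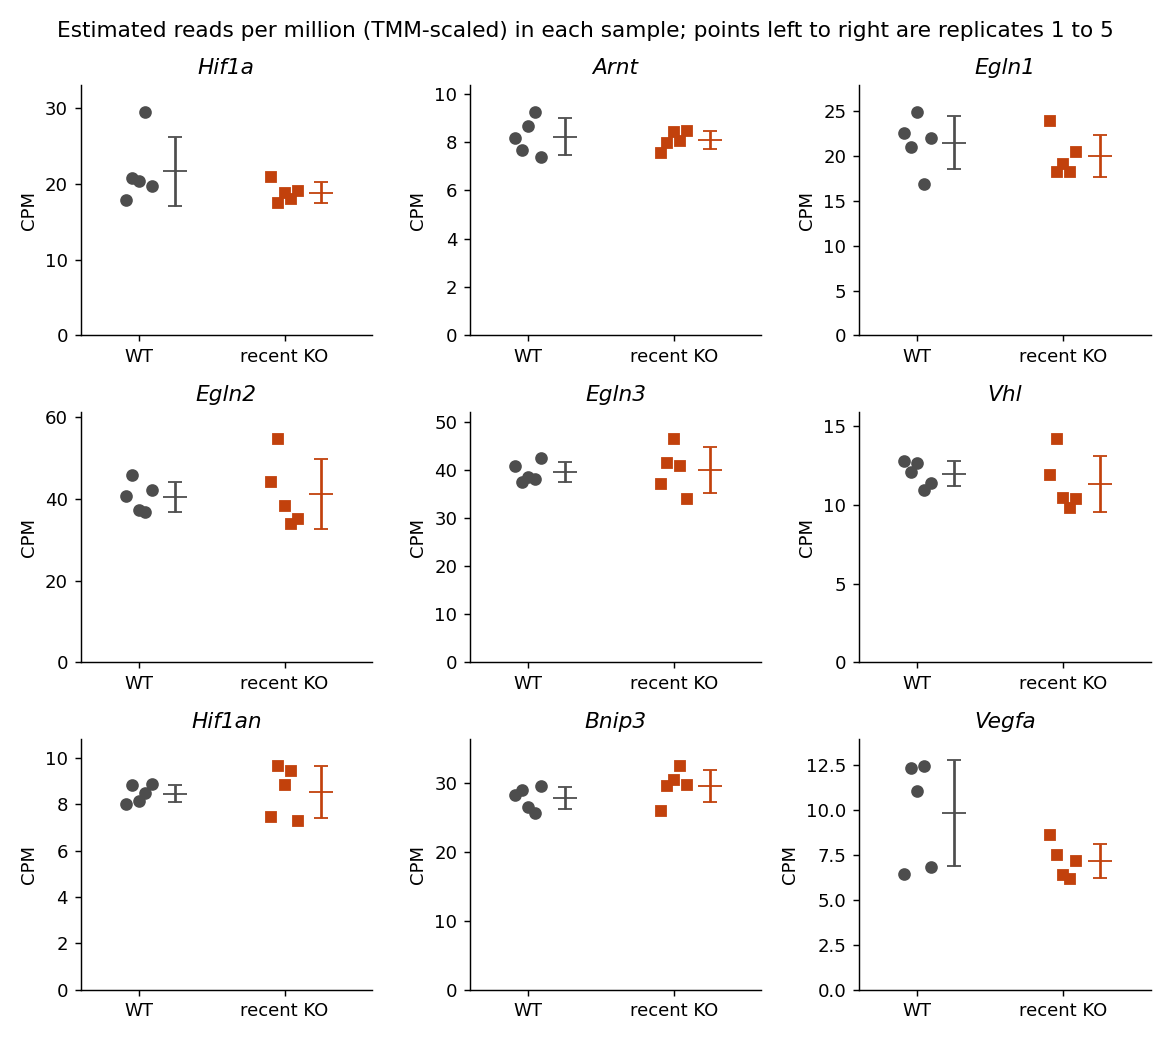
Level of each tested HIF pathway gene in every sample, in CPM (axes from 0). Circles are WT and squares recent KO samples, replicates 1 to 5 from left to right, with the mean and SD (n = 5) beside them. The groups overlap in all 9 panels, Hif1a of WT 4 stands at 29.5 CPM above the other 9 samples, and Vegfa splits the WT group into 2 samples at 6.46 and 6.82 CPM and 3 at 11.0 to 12.4 CPM.

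Of the alpha subunits, Hif1a carried nearly all the reads. Hif1a stood at 17.8, 20.8, 20.4, 29.5, and 19.7 CPM in WT 1 to 5 and at 21.0, 17.5, 18.8, 18.0, and 19.1 CPM in recent KO 1 to 5. WT 4 was the high sample, and the other 9 lay within 17.5 to 21.0 CPM. The log2 fold change was -0.19 (SE 0.12, 95% interval -0.46 to 0.07, edgeR adjusted p = 0.631), and without WT 4 it was -0.06 (edgeR adjusted p = 0.918). Epas1, which encodes HIF-2 alpha, a factor known best from endothelium and from cells that make erythropoietin, had 0, 0, 1, 2, and 0 estimated reads in WT 1 to 5 and 0, 0, 0, 0, and 1 in recent KO 1 to 5. All these values lay under a floor of 3 reads per library, which amounts to 0.147 to 0.233 CPM, so no fold change is given and a level below that floor was not detectable at this depth. Hif3a, a further alpha subunit that can act as an inhibitor, reached at most 5 reads, and Arnt2, a relative of Arnt from neural tissue, was at 0 in all 10 samples.

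Arnt stood at 8.17, 7.65, 8.67, 9.25, and 7.36 CPM in WT 1 to 5 and at 7.52, 7.97, 8.41, 8.04, and 8.45 CPM in recent KO 1 to 5. The recent KO range lay inside the WT range (log2 fold change -0.022, 95% interval -0.24 to 0.20, edgeR adjusted p = 0.966), and the sign turned to 0.05 under library size scaling.

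The enzymes that destroy or silence the alpha subunits differed between the groups by less than the spread of the samples. Egln2 stood at 40.7, 45.8, 37.4, 36.8, and 42.1 CPM in WT 1 to 5 and at 44.2, 54.7, 38.3, 33.8, and 35.0 CPM in recent KO 1 to 5, with recent KO 2 highest and recent KO 4 lowest of all samples (log2 fold change 0.019, 95% interval -0.24 to 0.28, edgeR adjusted p = 0.974). Egln3, whose gene is itself induced by HIF in many cells, stood at 41.0, 37.6, 38.7, 38.3, and 42.6 CPM in WT and at 37.2, 41.6, 46.6, 41.0, and 34.1 CPM in recent KO samples. Its WT range lay inside the recent KO range (log2 fold change 0.016, 95% interval -0.16 to 0.20, edgeR adjusted p = 0.967). Egln1, held to be the main oxygen sensor of most tissues, stood at 22.6, 21.0, 24.9, 16.9, and 22.0 CPM in WT and at 23.9, 18.3, 19.2, 18.3, and 20.4 CPM in recent KO samples. WT 4 was the lowest sample for Egln1 and the highest for Hif1a (Egln1 log2 fold change -0.11, 95% interval -0.34 to 0.13, edgeR adjusted p = 0.818).

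Vhl ranged from 11.0 to 12.8 CPM in WT and from 9.80 to 14.2 CPM in recent KO samples (log2 fold change -0.08, edgeR adjusted p = 0.863). Hif1an ranged from 8.03 to 8.86 CPM in WT and from 7.27 to 9.65 CPM in recent KO samples (log2 fold change 0.011, edgeR adjusted p = 0.984). In both genes the recent KO samples spread more widely than the WT samples, on both sides of them.

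**Figure D2:**
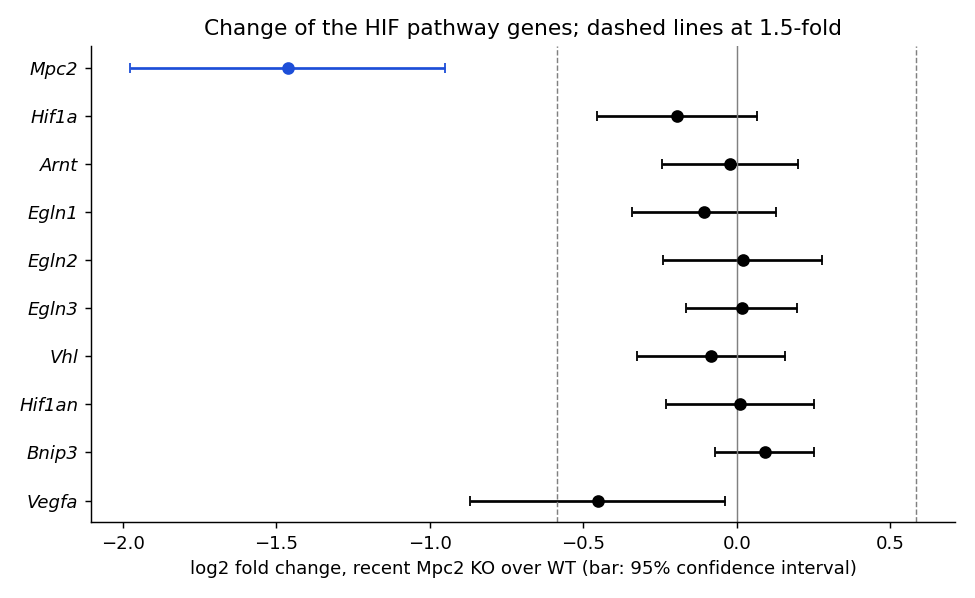
Log2 fold change (recent Mpc2 KO relative to WT) with its 95% confidence interval (edgeR, 5 samples against 5) for Mpc2 and the 9 tested HIF pathway genes. Dashed lines stand at 1.5-fold, and only the intervals of Mpc2 and Vegfa reach past the lower one (Vegfa -0.87 to -0.04).

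The 2 direct targets among the members differed in how they spread. Bnip3, an outer membrane receptor for mitophagy, stood at 28.2, 28.9, 26.4, 25.6, and 29.5 CPM in WT 1 to 5 and at 25.9, 29.5, 30.3, 32.4, and 29.6 CPM in recent KO 1 to 5. Recent KO 1 lay among the WT samples and the other 4 recent KO samples lay just above the highest WT sample (log2 fold change 0.09, 95% interval -0.07 to 0.25, edgeR adjusted p = 0.753). Bnip3 is uncertain for a further reason. A long noncoding RNA gene (ENSMUSG00000115801, chr14:44544055-44637201, minus strand, GRCm38) matches its transcripts at 98.3% over 858 bases, so the quantification could divide reads between them. That gene was credited with 27.95 to 53.8 CPM in WT against 20.1 to 42.8 CPM in recent KO samples, and Bnip3 held 34.9% to 50.9% of the summed reads in WT and 40.9% to 56.3% in recent KO samples. The sum of both genes was 62.0 ± 11.6 CPM in WT against 61.4 ± 11.9 CPM in recent KO samples (SD, n = 5 each, exact two-sided permutation test p = 0.976).

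Vegfa, the secreted factor that drives vessel growth, stood at 6.46, 12.3, 11.0, 12.4, and 6.82 CPM in WT 1 to 5 and at 8.58, 7.48, 6.40, 6.15, and 7.16 CPM in recent KO 1 to 5. In CPM, WT 2, 3, and 4 lay above every recent KO sample, while WT 1 and 5 lay among them. In TPM, only WT 2 (4.63) and WT 4 (3.18) lay above every recent KO sample. There WT 3 (2.79) lay below recent KO 4 (2.81) and recent KO 5 (2.95) (exact two-sided permutation test on TPM, p = 0.238). The log2 fold change was -0.45 (SE 0.19, 95% interval -0.87 to -0.04), with an unadjusted p of 0.0344 and an adjusted p of 0.436 in edgeR's quasi-likelihood test. An exact two-sided permutation test on the same CPM gave p = 0.127, where the smallest p that 5 samples against 5 allow is 0.00794. The same WT samples stood apart in Mpc2, at 61.0 CPM in WT 1 and 60.9 CPM in WT 5 and at 95.2 to 117 CPM in the other 3. They also stood apart in the share of reads taken by the 20 most abundant genes, at 18.0% and 17.9% against 20.3% to 21.6%, with 14.9% to 18.3% in recent KO samples. The part of library composition in the Vegfa values was not tested.

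Compared per transcript length, in TPM (reads divided by transcript length, as a share of the library), the members of the pathway were expressed at moderate levels, from the 30.4 to the 70.6 percentile of tested genes for the 9 that were tested. In WT, mean TPM ran from Bnip3 (17.6) and Egln2 (17.5) over Egln3 (12.7), Egln1 (4.93), Vhl (4.64), Hif1a (4.54), Vegfa (3.05), and Arnt (2.24) to Hif1an (1.97), with Epas1 last at 0.0058. The place of Bnip3 depends on how reads were divided with its near-identical noncoding gene. Bnip3 held 34.9% to 50.9% of their summed reads in WT. Of the neighbors in this order, the WT ranges of Egln2 and Egln3, of Egln3 and Egln1, and of Hif1an and Epas1 did not overlap. All other neighbors overlapped. Of these, Hif1a lay above Vegfa in all 10 samples, and the upper gene of the remaining pairs was higher in 5 to 8 of the 10 samples. The place of Epas1 here was set by 3 reads in 5 WT libraries.

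The balance among the 3 prolyl hydroxylases differed by less than the spread of the samples. Egln2 made up 49.8% ± 2.5 of their summed TPM in WT and 50.1% ± 4.8 in recent KO samples, Egln3 36.2% ± 1.7 and 36.7% ± 4.4, and Egln1 14.0% ± 1.9 and 13.2% ± 2.1 (SD, n = 5 each). Hif1a TPM, with noncoding transcripts counted as in all these values, was 2.03 ± 0.38 times that of Arnt in WT and 1.88 ± 0.37 times in recent KO samples. The summed Egln TPM was 8.06 ± 2.00 times that of Hif1a in WT and 9.05 ± 2.61 times in recent KO samples, lowest in WT 4 (5.09) and highest in recent KO 2 (13.2). These 6 quantities, chosen after the levels were seen and counting the summed Egln TPM itself, overlapped between the groups, with exact two-sided permutation p of 0.524 to 0.921 and 0.833 to 0.921 after Benjamini-Hochberg adjustment over the 6.

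**Figure D3:**
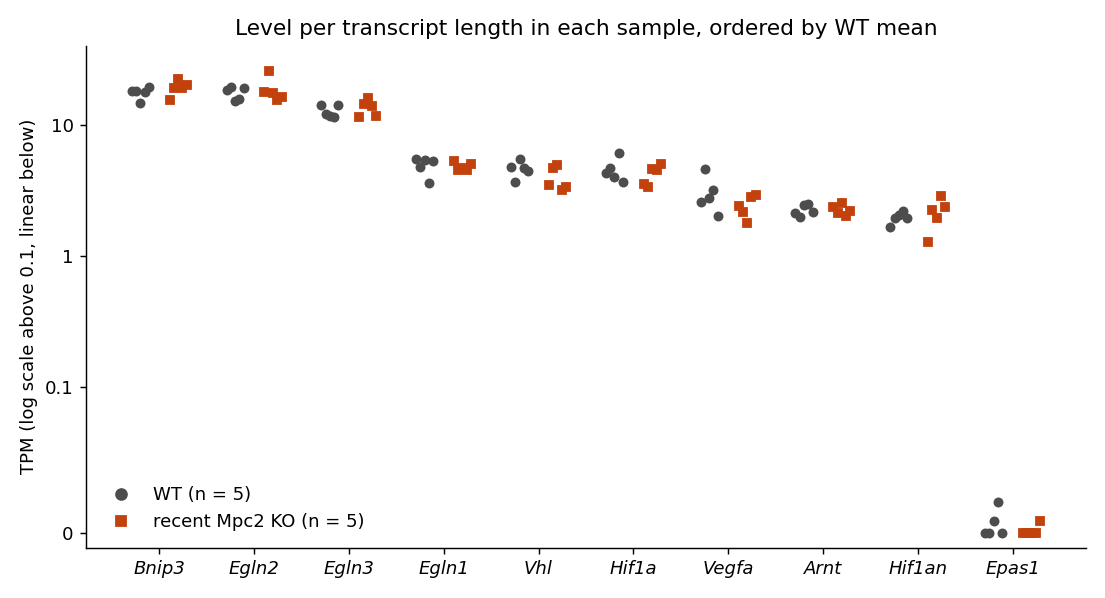
TPM of the 10 genes in every sample (circles WT, squares recent KO, axis logarithmic above 0.1 and linear below), ordered by the WT mean. Bnip3, Egln2, and Egln3 lie above 11 TPM in all samples, the next 6 genes between 1.28 and 6.06 TPM, and Epas1 at or near 0.

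Salmon also divided the reads of each gene among its annotated transcripts. In 3 members at least 2 transcripts held over 10% of the reads, which gave 6 transcripts to compare. Arnt-202, the main form, took 75.4%, 72.9%, 52.0%, 61.9%, and 72.2% of Arnt reads in WT 1 to 5 and 89.3%, 82.3%, 82.2%, 80.5%, and 77.5% in recent KO 1 to 5. Every recent KO sample lay above every WT sample (66.9% ± 9.8 in WT, 82.4% ± 4.3 in recent KO, exact two-sided permutation test p = 0.00794, adjusted over the 6 transcripts p = 0.0476). This share rests on 107 to 172 Arnt reads per sample. With TPM in place of estimated reads the groups overlapped, and the share did not pass after adjustment. Arnt-202 held 1.23 of 2.12 TPM in WT 1 against 1.21 of 2.37 TPM in recent KO 1. Another coding form, Arnt-205, was credited with 5.24, 0, 26.3, 0, and 17.0 reads in WT 1 to 5. In recent KO samples it had 8.81 reads in recent KO 4 and none in the others. With 1 sample left out, the smallest p the exact test allows is 0.0159, which 1 transcript alone cannot carry past the adjustment, and the threshold was passed only without WT 5, by 2 transcripts together.

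Arnt-203, which has a coding exon of 45 bases that Arnt-202 lacks, took 18.4% ± 8.4 in WT and 9.10% ± 0.81 in recent KO samples (exact two-sided permutation test p = 0.0476, adjusted p = 0.143). WT 5 lay lowest of all samples at 4.45%, and the other 4 WT samples lay above every recent KO sample. The exon lies at chr3:95466793-95466837 on the plus strand (GRCm38), is a multiple of 3 bases long, and is the coding difference between the forms. The forms also differ outside the coding sequence (4325 bases in Arnt-202 and 2699 in Arnt-203), so their shares need not reflect the exon.
Arnt exon present in Arnt-203: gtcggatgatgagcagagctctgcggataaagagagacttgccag
Counted over all 4 annotated transcripts that hold it, the exon was in 19.5%, 24.1%, 23.9%, 33.7%, and 7.77% of Arnt reads in WT 1 to 5 and in 8.11%, 14.7%, 11.8%, 10.3%, and 19.4% in recent KO 1 to 5. These values overlapped (exact two-sided permutation test p = 0.0952) and correspond to 8.68 to 40.1 estimated reads per sample, a quantity chosen after the shares had been seen. Most reads of a transcript lie outside the exon, so that its inclusion was inferred by the quantification.

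Vegfa was divided between 2 forms. Vegfa-202 contains a coding block of 132 bases, known to encode the heparin-binding part that keeps the factor near the cell, and Vegfa-201 lacks it, and forms without it are known to diffuse more freely. The 2 forms also differ in their annotated coding start (1104 coding bases in Vegfa-202 and 438 in Vegfa-201). The block lies at chr17:46020991-46021122 on the minus strand (GRCm38).
Vegfa coding block present in Vegfa-202: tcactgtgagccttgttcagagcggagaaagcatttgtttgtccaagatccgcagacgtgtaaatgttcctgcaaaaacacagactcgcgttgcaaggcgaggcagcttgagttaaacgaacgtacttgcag
Vegfa-202 took 44.3%, 40.7%, 57.8%, 50.6%, and 32.4% of Vegfa reads in WT 1 to 5 and 38.5%, 56.1%, 68.3%, 54.8%, and 48.7% in recent KO 1 to 5. The groups overlapped (exact two-sided permutation test p = 0.254, adjusted p = 0.381). Vegfa-201 took 52.2% ± 10.04 in WT and 43.0% ± 8.57 in recent KO samples (exact two-sided permutation test p = 0.159, adjusted p = 0.317).

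Hif1a-201 took 65.7% to 99.7% of Hif1a reads in WT and 63.6% to 96.8% in recent KO samples. Hif1a-202, which starts at an upstream first exon (chr12:73901375, GRCm38) and has a shorter coding sequence (2430 against 2508 bases), took from 0% in WT 5 to 32.5% in WT 3 and from 2.85% to 32.1% in recent KO samples. The spread within each group was as wide as between them (exact two-sided permutation p = 0.675 and 0.556 for the 2 transcripts, adjusted p = 0.675 and 0.667).

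**Figure D4:**
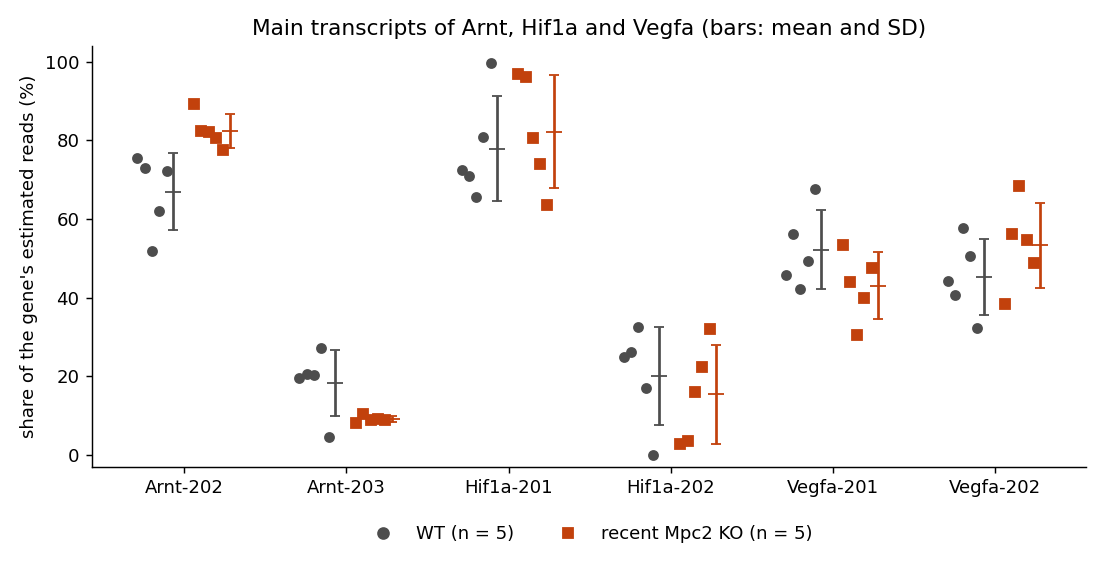
Share of a gene's estimated reads assigned to each of 6 transcripts of Arnt, Hif1a, and Vegfa, by sample (circles WT, squares recent KO) with the mean and SD (n = 5). The groups separate for Arnt-202 only, at 52.0% to 75.4% in WT and 77.5% to 89.3% in recent KO samples.

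Genes of the proteins that act with the members did not pass the same test. Of 24 tested partners (elongin and cullin subunits of the VHL ligase, coactivators, chaperones, and SIAH ligases that destroy the EGLN enzymes), 0 passed, 12 were higher and 12 lower, and the median log2 fold change was 0.0078. At an unadjusted p under 0.05 there were 2 partners. Eloc, the elongin subunit that joins VHL to its ligase, was at 80.6, 89.5, 93.5, 94.4, and 90.4 CPM in WT 1 to 5 and at 119, 76.6, 117, 115, and 112 CPM in recent KO 1 to 5. Recent KO 2 lay below all other samples and the other 4 recent KO samples above all WT samples. The log2 fold change was 0.27 (edgeR adjusted p = 0.398), and without recent KO 2 it was 0.37 (edgeR adjusted p = 0.0121). That fit left out the only recent KO sample that was low, and it called 91 genes in all against 41 with every sample. No other alternative called Eloc. Cited4, which competes with HIF for coactivators, was at 8.22 to 14.2 CPM in WT, with WT 4 highest, against 3.42 to 9.63 CPM in recent KO samples (log2 fold change -0.60, edgeR adjusted p = 0.463). The third partner by p, Rnf7, a ring subunit of cullin ligases, had a log2 fold change of 0.13 (edgeR adjusted p = 0.534), and the abundant Hsp90ab1, Pkm, and Hsp90aa1 had -0.024, -0.05, and -0.10.

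Of 28 tested HIF targets that handle glucose, lactate, and pH, 0 passed in edgeR, 15 were higher and 13 lower, and the median log2 fold change was 0.012. The 2 with an unadjusted p under 0.05 were both lower. Gpi1, the isomerase of the second glycolytic step, was 1187 ± 83 CPM in WT against 1030 ± 140 CPM in recent KO samples (log2 fold change -0.21, edgeR adjusted p = 0.463). Car9, a membrane carbonic anhydrase and a common reporter of HIF activity, was 22.6 ± 1.9 CPM in WT against 20.2 ± 0.9 CPM in recent KO samples (log2 fold change -0.17, edgeR adjusted p = 0.486). Ldha, which turns pyruvate into lactate, was 2693 ± 252 and 3104 ± 433 CPM (log2 fold change 0.21, edgeR adjusted p = 0.531). The abundant glycolytic enzymes Gapdh and Eno1 had log2 fold changes of -0.07 and -0.17. Pdk1, a HIF target named after its values were seen, encodes a kinase that inhibits pyruvate dehydrogenase, an enzyme inside mitochondria. Pdk1 was 43.9 to 48.9 CPM in WT against 43.0 to 60.4 CPM in recent KO samples (log2 fold change 0.07, edgeR adjusted p = 0.845).

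Of 37 tested HIF targets with other functions, 0 passed in edgeR, 15 were higher and 22 lower, 5 had an unadjusted p under 0.05, and the median log2 fold change was -0.09. Hmox1, which encodes the heme-degrading oxygenase, had the smallest p. It stood at 3.43, 5.93, 6.47, 4.20, and 9.10 CPM in WT 1 to 5 and at 11.8, 19.9, 11.2, 9.13, and 7.47 CPM in recent KO 1 to 5. The groups overlapped through recent KO 5 and WT 5, with WT 5 the highest WT sample and recent KO 2 the highest of all. The log2 fold change was 1.02 (95% interval 0.42 to 1.63, edgeR adjusted p = 0.199), and DESeq2 gave an adjusted p of 0.0202.

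Macrophages, which degrade red cells, are rich in Hmox1, and some of their markers were higher in the same samples. Of 14 tested macrophage markers, 11 were higher and 3 lower, and 3 passed in edgeR, the complement genes C1qa, C1qb, and C1qc, all higher in recent KO samples, as 0.121% of tested genes were (log2 fold changes 1.25, 1.35, and 1.59, edgeR adjusted p = 0.0406, 0.0160, and 0.0383). C1qc stood at 2.06, 2.88, 2.26, 4.59, and 5.87 CPM in WT and at 11.0, 15.9, 11.0, 7.61, and 7.27 CPM in recent KO samples, highest in recent KO 2 and, within WT, in WT 5, as Hmox1 was. Another 3 markers, Cd5l, Fcna, and Spic, did not overlap between the groups without passing the threshold (log2 fold changes 1.63, 1.58, and 1.19). The groups did not overlap in 2.43% of all tested genes. At an unadjusted p under 0.05 in edgeR there were 8 of the 14 markers, 7 higher and 1 lower, against 10.2% of all tested genes. No marker passed the adjusted threshold without WT 2, WT 3, WT 4, or recent KO 3. Cd68, the most abundant marker of the list, was lower, at 78.4 ± 8.1 CPM in WT against 68.1 ± 3.5 CPM in recent KO samples (log2 fold change -0.20, edgeR adjusted p = 0.364), as were Adgre1 (-0.39) and Siglec1 (-0.17), while Cd163, Slc40a1, and Vcam1 had log2 fold changes of 0.025, 0.07, and 0.18. The summed macrophage list was 113 to 136 CPM in WT against 126 to 167 CPM in recent KO samples, no marker of the 17 was at 0 in all samples, and the part of such cells in the Hmox1 values was not tested.

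Among the other targets, Plod2, a collagen lysyl hydroxylase, was 0.80 ± 0.18 CPM in WT against 1.34 ± 0.39 CPM in recent KO samples (log2 fold change 0.76, edgeR adjusted p = 0.395). Tfrc, the transferrin receptor, was 29.8 ± 11.7 CPM in WT, with WT 4 at 49.9, and 21.4 ± 0.6 CPM in recent KO samples (log2 fold change -0.48, edgeR adjusted p = 0.412). The abundant targets Mif, Higd1a, and Fam162a had log2 fold changes of 0.028, 0.12, and 0.10.

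Around the 2 target members, relatives were described in the same way. Of 5 tested VEGF ligands and receptors, 0 passed in edgeR, 2 were higher and 3 lower, and the median log2 fold change was -0.34. At an unadjusted p under 0.05 in edgeR there were 2, Nrp1 and Nrp2, both lower, against 10.2% of all tested genes. Nrp1, a coreceptor that binds the heparin-binding form of Vegfa, stood at 4.16, 4.88, 4.39, 6.30, and 4.55 CPM in WT 1 to 5 and at 1.83, 2.17, 3.91, 3.04, and 2.83 CPM in recent KO 1 to 5. Every recent KO sample lay below every WT sample (log2 fold change -0.80, 95% interval -1.25 to -0.35, edgeR adjusted p = 0.185), and DESeq2 gave an adjusted p of 0.0433. Nrp2 had a log2 fold change of -0.72 (edgeR adjusted p = 0.478), Flt1 of -0.34 (edgeR adjusted p = 0.784), and Vegfb of 0.07 (edgeR adjusted p = 0.887). Of 18 tested genes in a list of Bnip3 relatives and mitophagy genes, 0 passed in edgeR and 0 had an unadjusted p under 0.05. Of these, 7 were higher and 11 lower, with a median of -0.03. The log2 fold changes of Fkbp8, Phb2, Map1lc3b, Gabarap, and Opa1 lay between -0.14 and 0.11.

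The last list held the other oxygenases that use 2-oxoglutarate, an intermediate of the TCA cycle, as the EGLN enzymes do. Of 39 tested, 0 passed in edgeR, 13 were higher and 26 lower, 3 had an unadjusted p under 0.05, and the median log2 fold change was -0.03. Plod3, a collagen lysyl hydroxylase and glycosyltransferase, stood at 88.1, 90.6, 91.9, 110, and 83.7 CPM in WT 1 to 5 and at 74.5, 70.1, 63.7, 75.7, and 77.4 CPM in recent KO 1 to 5. The groups did not overlap (log2 fold change -0.36, 95% interval -0.54 to -0.19, edgeR adjusted p = 0.0937), and DESeq2 gave an adjusted p of 0.0092. The summed list was 728 to 761 CPM in WT against 691 to 718 CPM in recent KO samples, and without Plod3 the 2 ranges overlapped (640 to 650 and 616 to 643 CPM). Ogfod3 had a log2 fold change of 0.22 (edgeR adjusted p = 0.366), and Jmjd6 and Riox2, the most abundant after Plod3, had -0.10 and -0.07.

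Markers of other cells gave the following background to all of these values. Of 11 tested erythroid and megakaryocyte genes, 0 passed in edgeR, all 11 were higher and 9 had an unadjusted p under 0.05 (median 1.38, summed 59.2 to 108 CPM in WT against 91.7 to 328 CPM in recent KO samples). Hba-a1 was at 1.13 to 11.5 CPM in WT, at 6.26 and 7.41 CPM in recent KO 1 and 2, and at 33.7 to 59.2 CPM in recent KO 3 to 5. Pf4 did not overlap (3.33 ± 1.54 against 8.65 ± 2.22 CPM, edgeR adjusted p = 0.122). Of 11 late neutrophil genes, 0 passed, 9 were higher, and 6 had an unadjusted p under 0.05 (median 1.03, summed 226 to 563 and 234 to 960 CPM). Of 6 tested endothelial and stromal genes, 0 passed and 0 had an unadjusted p under 0.05, and the defining marker Cdh5 was at 0 in all 10 samples. Of 20 cell cycle genes, 0 passed, 10 were higher and 10 lower, 1 had an unadjusted p under 0.05 (Ccnb1, log2 fold change 0.15), and the median was 0.0056. The part of other cells in the members' values was not tested.

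**Figure D5:**
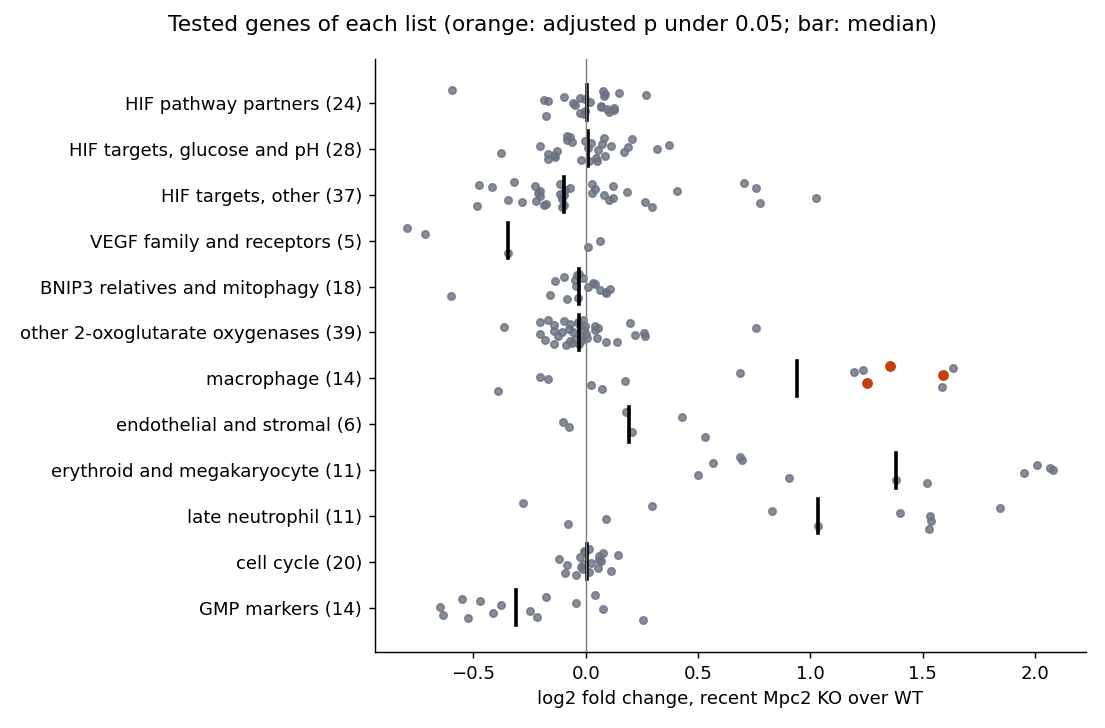
Log2 fold change (recent Mpc2 KO relative to WT) for every tested gene of 12 lists (number tested in parentheses), with the median as a bar and genes with an edgeR adjusted p under 0.05 in orange. The HIF partners, glucose targets, Bnip3 relatives with mitophagy genes, oxygenases, and cell cycle genes have medians between -0.03 and 0.012. The other HIF targets have a median of -0.09, the GMP markers of -0.31, and the VEGF list of -0.34. The endothelial and stromal list has a median of 0.19. The macrophage, erythroid, and late neutrophil lists have medians of 0.94 to 1.38. The 3 orange points are C1qa, C1qb, and C1qc.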

How the data were processed

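The authors quantified transcripts of Gencode M27 (GRCm39) with Salmon (version 1.5.1 in the submitters' processing notes) from paired-end SMARTseq V4 libraries with reads of 150 bases. The authors deposited, per transcript and sample, estimated counts of reads (expected counts), which are not normalized, and TPM, which are scaled to transcript length. The table the authors deposited of their own DESeq2 comparison, with a mean signal, log2 fold changes, a score, and p-values, was not used. Transcripts were matched without version numbers to GENCODE M21 (GRCm38), an older annotation, so positions are on GRCm38. Of 140789 transcripts, 137161 matched, and unmatched ones held 0.348% to 0.390% of the reads.

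Estimated counts were summed to 51717 genes and rounded. Recent KO was compared with WT by edgeR 4.0.16's quasi-likelihood test (TMM, filterByExpr at a minimum count of 10, 12381 genes, no covariates, Benjamini-Hochberg adjustment over all tested genes at 0.05). The kit does not mark strand, so overlapping antisense reads cannot be separated. Each library holds 14033776 to 19745405 estimated reads. Intervals of fold changes include the spread between samples, and floors (3 counts) cover counting error only, since cDNA was amplified and molecules carried no identifiers. No pair of libraries in a group was identical. Ratios, shares, and single values were compared with exact two-sided permutation tests. Transcripts were compared where the gene had a mean of at least 50 reads and the transcript at least 10% of them. Copies were found with BLAST 2.17.0 at 95% identity over 200 bases. The steps were tested on simulated data.

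The alternatives were RLE and library size scaling, no filter, a transcript length offset, the replicate block, protein-coding transcripts only, DESeq2 1.42.0, limma 3.58.1 on log2(TPM + 1) and log2(TPM + 0.1), and leaving out each sample. TPM in place of reads was added after seeing the data. The members and lists were chosen with earlier results of these data known. The genes named were taken from those of each list that passed, the 3 with the smallest p, the 3 most abundant, and, for markers of other cells, those whose groups did not overlap. The single result of 1 list gene, which entered every test and count, is not reported here. Hif3a, Arnt2, Cdh5, Pdk1, Adgre1, Siglec1, Cd163, and Slc40a1 were named after their values were seen. R 4.3.3, Python 3.11.15, numpy 2.4.6, pandas 2.3.3, and scipy 1.17.1 were used.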

Additional observations from a re-analysis of the deposited data

Results flagged for a closer look

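A sample was singled out where its gap to the nearest sample of its group exceeded Dixon's 95% critical value (0.71 for 5 samples) as a share of the group's range. This was applied to 148 groups, in which chance gives about 7.4 cases, and 11 were found. Among the members there was 1, Hif1a in WT 4, at 29.5 CPM against 17.8 to 20.8 CPM in the other WT samples. WT 4 was singled out in 5 further genes, in Cited4 (14.2 CPM), Tfrc (49.9 CPM), Lcn2 (180 CPM), Pecam1 (16.8 CPM), and Car2 (26.4 CPM), the first 3 high and the last 2 low. Recent KO 2 was low in Eloc (76.6 CPM) and Fam162a (117 CPM). WT 2 was low in Phb2 (433 CPM), WT 5 was high in Cd5l (1.86 CPM), and recent KO 1 was low in Pecam1 (16.0 CPM).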

How the results depend on the processing

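No member passed the adjusted threshold under any of the 19 alternatives, and the lowest adjusted p of a member in any of them was 0.310 (Vegfa without WT 1). Hif1a, Egln1, Vhl, Bnip3, and Vegfa kept their sign in all 19 (Vegfa -0.58 to -0.22, adjusted p 0.310 to 0.721). Arnt, near 0, turned to 0.053 under library size scaling and to 0.0082 and 0.012 in the limma fits with a TPM pseudocount of 1 and 0.1. Leaving out 1 sample at a time, log2 fold changes ranged from -0.057 to 0.021 for Arnt, -0.10 to 0.082 for Egln2, -0.044 to 0.070 for Egln3, and -0.036 to 0.065 for Hif1an. Bnip3 separated the groups without recent KO 1, so the count of members without overlap ranged from 0 to 1. Transcript shares passing ranged from 0 to 2 on leaving out a sample (2 without WT 5, fewer samples allowing no p below 0.0159 before adjustment) and were 0 with TPM.

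The count of genes called was 41, and it was 206 without a filter, 19 with protein-coding transcripts only, 156 with DESeq2, 25 and 24 with limma at the 2 pseudocounts, and 25 to 91 on leaving out 1 sample (26 without WT 3, 91 without recent KO 2, 25 without recent KO 3 or 4). Mpc2 missed the threshold at -1.40 with the length offset and at -1.35 and -1.38 with limma, and ranged from -1.60 to -1.31 on leaving out 1 sample (-1.41 and just short of the threshold without recent KO 1).

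Of the lists, the HIF partners had 0 to 1 calls on leaving out 1 sample (Eloc), the other HIF targets 1 without a filter and 1 with DESeq2 (Hmox1), the VEGF list 1 with DESeq2 (Nrp1), and the oxygenases 1 without a filter and 1 with DESeq2 (Plod3). The macrophage list had 5 calls under library size scaling, 5 without a filter, 6 with DESeq2, 1 each with the length offset, protein-coding transcripts, and either limma fit, and 0 to 5 on leaving out 1 sample (0 without WT 2, 3, or 4 or recent KO 3, 5 without WT 5). The erythroid and megakaryocyte list had 7 without a filter and 1 with DESeq2, and the late neutrophil list 5 without a filter.

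Same-numbered samples did not deviate together in expression (correlations -0.177 to 0.0576). This check cannot show whether samples of the same number were handled together. With the replicate block, 20 genes, 0 members, and 0 macrophage markers were called, and Mpc2 was -1.46 (adjusted p = 0.0577). No sample correlated best with its own number. The cause of the other changes was not tested. At 107 to 172 reads of Arnt per sample, depth limits its transcript shares.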
